A study of Mus musculus with 4 samples.

Results

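The table of m6A peaks in mouse liver held 12815 distinct peaks, and 1003 of them were listed with no overlapping gene in any of their rows. These 1003 peaks are described here. They were sorted by the closest transcript start of the table into 367 upstream peaks, at most 10 kb before that start along its strand, 178 downstream peaks, at most 10 kb after it, and 458 remote peaks, farther away. The 4 libraries came from livers of 2 genotypes, Mettl3flox/flox (flox) and a hepatocyte-specific Mettl3 knockout (HKO) in which Cre driven by the albumin promoter removes the floxed allele. Both groups carried the floxed allele on the C57BL/6 background, ate normal chow and were 8 weeks old. RNA of several mice was pooled for each library, with 1 library of immunoprecipitated RNA (IP) and 1 of RNA before precipitation (input) per genotype. The model targets hepatocytes, and whether other liver cells keep Mettl3 was not measured here. Since Mettl3 itself had no peak in the table, the knockout has no check in these values.

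N6-methyladenosine (m6A) is written co-transcriptionally by a complex whose catalytic subunit is METTL3. It sits mostly in the consensus sequence DRACH, of which GGACT is the most used form, and accumulates in long internal exons, around stop codons and in 3' UTRs. An antibody pulls down fragments that carry the mark, and a peak is a stretch where reads of the IP library exceed those of the input. The same antibody also recognises m6Am, a mark next to the cap that METTL3 does not write. A peak outside every gene can mark an unannotated transcript or a transcript that runs past its annotated end, or it can come from a gene model that is too short.

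The last possibility could be checked, because the reference annotation has the genome build of the table (GRCm38). The table gave each gene the span of 1 transcript. Of 8321 closest genes found in GENCODE M21, 5505 had a span equal to the whole gene and 33.8% had a different, usually shorter one. In M21, 763 of the 1003 peaks (76.1%) overlapped an annotated gene, and 720 of them an exon. Coding sequence (CDS) held 306 peaks, 3' UTRs 265, 5' UTRs 104, non-coding exons 45 and introns 43. The remaining 240 peaks (23.9%, exact 95% interval 21.3 to 26.7%) overlapped no M21 gene. The data therefore go against the label of peaks that overlap no annotated gene for most members, and they are called peaks listed with no gene below. All of the 11812 peaks that the table listed with a gene did overlap an M21 gene.

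The table itself gave a span for the M21 gene of 483 of these peaks. All 483 lay outside that span, which follows from choosing peaks listed with no gene. The median distance was 5626 bases. The span was that of a retained-intron transcript in 335 of the 483 (69.4%), of a protein-coding transcript in 95 and of a processed transcript in 37. Among all closest genes of the table whose span matched a transcript, 9.0% had a retained-intron span. Yap1, which encodes the transcriptional effector of the Hippo pathway, shows the pattern: its M21 gene runs over 72.6 kb, the table gave it the first 7.69 kb, and the peak in its 3' UTR began 69.8 kb from the gene start. Upstream, downstream and remote therefore describe the distance to a start in the table, not a position outside genes. In 26 of the 763 peaks M21 has genes on both strands, and since no source used here says whether the libraries kept strand, the gene of those peaks is uncertain.

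**Figure D1:**
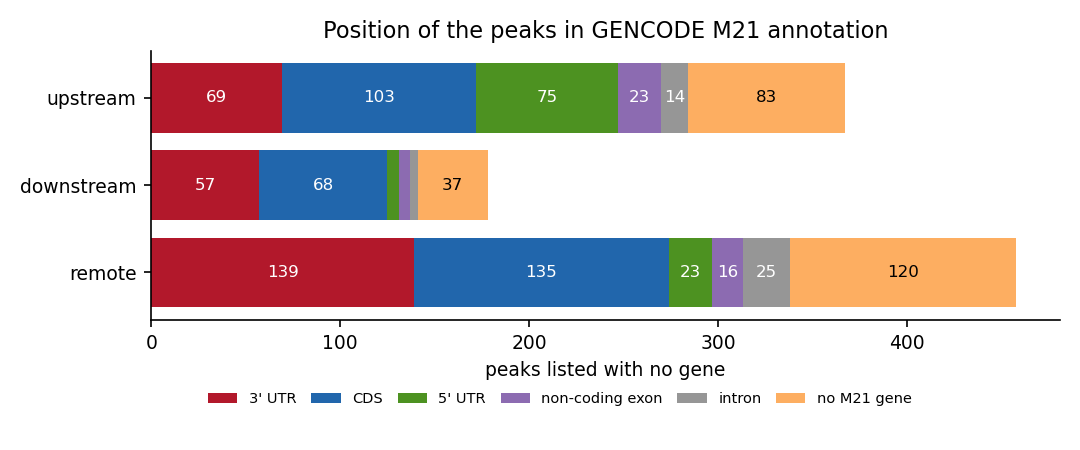
Number of peaks listed with no gene (x axis) in each distance class (rows), coloured by position in GENCODE M21. Coding sequence and 3' UTRs held 172 of the 367 upstream, 125 of the 178 downstream and 274 of the 458 remote peaks, and 83, 37 and 120 peaks overlapped no M21 gene.

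**Figure D2:**
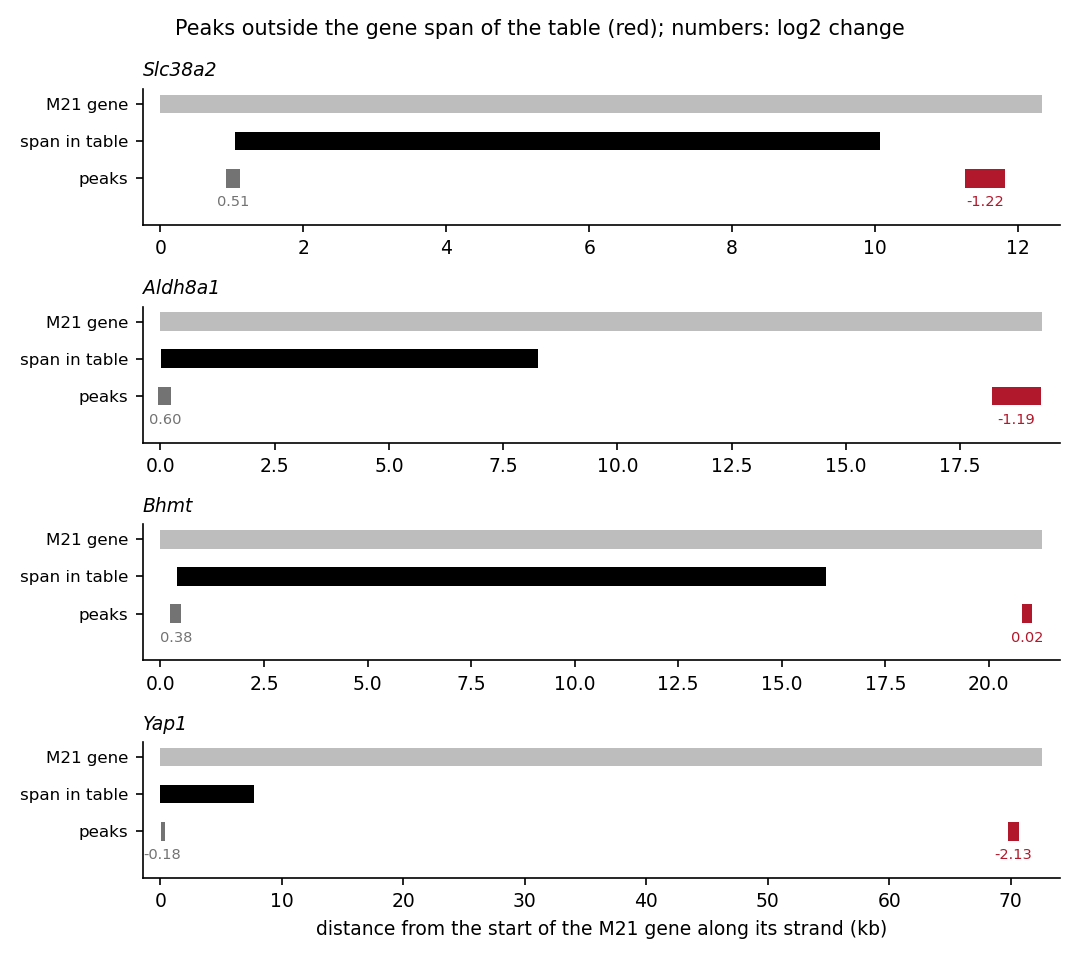
Gene extent in M21 (grey), gene span in the table (black) and peaks along 4 genes, in kb from the gene start along its strand. Red peaks were listed with no gene and grey peaks with the gene, and the number under each peak is its log2 change of enrichment, HKO over flox. In all 4 genes the red peak lies near the 3' end, beyond the span in the table.

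The sequences around GGACT in 11 of the named exonic peaks are shown because they are what the antibody signal of these peaks would be read against. Each is the transcript strand of GENCODE M21, 5' to 3', with the GGACT nearest the deposited peak summit in capitals and 12 bases on either side.
Acsl1 3' UTR, chr8:46534812-46534840, plus strand: actgaggggttaGGACTtattctttctga
Aldh8a1 3' UTR, chr10:21395777-21395805, plus strand: agaaggagccaaGGACTcatatgacttct
Slc38a2 3' UTR, chr15:96688346-96688374, minus strand: tgaaacccctggGGACTgtgtagacgcaa
Slc39a14 3' UTR, chr14:70306580-70306608, minus strand: tccccggcccgaGGACTcagcatccacga
Slc40a1 CDS, chr1:45911163-45911191, minus strand: gtggccttgttcGGACTggtctattctca
Isca1 3' UTR, chr13:59756831-59756859, minus strand: tgtgaaacctcaGGACTgtgagctccagg
Them4 3' UTR, chr3:94331866-94331894, plus strand: ctgctctgctgtGGACTgcagaagaaaaa
Bhmt 3' UTR, chr13:93616945-93616973, minus strand: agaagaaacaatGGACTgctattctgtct
Ube2e2 5' UTR, chr14:18893614-18893642, minus strand: ggtttcactcccGGACTcggcgtcggagc
Stra6l 5' UTR, chr4:45849169-45849197, plus strand: ggagaaagacacGGACTggctaatctgca
Bmp1 5' UTR, chr14:70519932-70519960, minus strand: cggccggccgctGGACTtggccgactaca
The first 7 belong to peaks that were lower in HKO by at least 2-fold, and the Bhmt sequence to a peak whose log2 change was 0.02. The last 3 belong to peaks that were higher in HKO, with log2 changes of 1.03, 1.11 and 0.77. Of the 27 named exonic peaks searched, 15 held GGACT on the transcript strand. Among the 13 of these 27 that were at least 2-fold lower it was absent under Yap1, Rps6kc1, Prmt9 and Tgif1. The named coding peak of Mtpap, also at least 2-fold lower, is not among the 27. The nearest GGACT was 4 bases from the summit in Them4, 42 in Slc39a14 and 234 in Aldh8a1. No base of these peaks was measured singly, so a GGACT under a peak is a match and not a mapped site.

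On the transcript strand, GGACT occurred under 243 of the 720 exonic peaks listed with no gene (33.8%, exact 95% interval 30.3 to 37.3%) and under 38.4% of the 11647 exonic peaks listed with a gene. In windows of equal length, 200 bases around the middle of the exonic part, the shares were 24.9% (21.7 to 28.2%) and 27.6% (26.8 to 28.5%). Counting both strands, 47.9% of the exonic peaks listed with no gene and 52.3% of the others held GGACT or its reverse complement. The transcript strand was chosen for the following split after the data were seen. Under the 153 exonic peaks that were at least 2-fold lower in HKO, 56.9% (48.6 to 64.8%) had GGACT on the transcript strand, against 17.6% (6.8 to 34.5%) of the 34 that were at least 2-fold higher. The lower peaks were longer, with a median exonic length of 372 against 157.5 bases, and in 200-base windows the shares were 36.6% (29.0 to 44.8%) and 17.6% (6.8 to 34.5%), with overlapping intervals. Counting both strands, the shares were 64.1% (55.9 to 71.6%) and 26.5% (12.9 to 44.4%) under the peaks, and 44.4% (36.4 to 52.7%) and 26.5%, again with overlapping intervals, in the 200-base windows. On the transcript strand peaks listed with a gene gave 39.5% and 18.6% in the same windows. The shorter GGAC, which every GGACT also contains, was on the transcript strand under 71.1% of the exonic peaks listed with no gene and 76.0% of the others.

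Within a position the motif went with the change. Those in 3' UTRs with GGACT on the transcript strand changed by a median of -0.91 (-1.14 to -0.76, n = 133 peaks) on the log2 scale, and those without it by -0.42 (-0.64 to -0.16, n = 132). In coding sequence the medians were -0.64 (-0.94 to -0.27, n = 79) and 0.37 (0.29 to 0.47, n = 227). In 5' UTRs they were 0.41 (n = 21) and 0.38 (n = 83), with overlapping intervals. Length of the peak moves with both the motif and the change, and its part in these differences was not tested.

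The libraries held 14972301 to 18365473 reads. The peaks listed with no gene took 580261 flox IP, 188724 flox input, 430295 HKO IP and 219211 HKO input reads, which was 5.85 to 7.01% of the reads in all peaks. A median peak listed with no gene held 204 flox IP, 60 flox input, 188 HKO IP and 80 HKO input reads, slightly fewer than a peak listed with a gene. Enrichment is the RPM of the IP library over that of the input of the same genotype, where RPM is the deposited count plus 1, scaled to the reads of the library. The change is given as log2 of HKO enrichment over flox enrichment. Each library was scaled to its own reads, so the change is relative and does not measure an absolute gain or loss of m6A. All peaks of the table together held 46.5% of the reads in flox IP and 39.4% in HKO IP. In the inputs they held 19.98% in flox and 20.39% in HKO. Whether scaling removed part of a loss shared by many peaks was not tested. With 1 library per genotype and fraction no difference had a replicate check and no test was made. An interval given for 1 peak covers counting error of its reads alone and is too narrow where reads are PCR copies, and one given for a share or a median covers the sampling of peaks.

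Over all 1003 peaks, enrichment on this relative scale was a little lower in HKO. Its median was 2.96 in flox and 2.43 in HKO, and the median log2 change was -0.11 (-0.20 to -0.02), against -0.03 (-0.07 to 0.00) over the peaks listed with a gene. At 231 of the 1003 peaks HKO enrichment was lower by at least 2-fold (23.0%, exact 95% interval 20.5 to 25.8%), where 24.3% of all peaks in the table passed. It was at least 2-fold higher at 58 (5.78%, 4.42 to 7.41%), where 6.25% of all peaks were. Both shares lie near the background of the table. Peaks called in flox alone made up 27.5% (24.8 to 30.4%) against a background of 22.5%, and peaks called in HKO alone 28.7% (25.9 to 31.6%) against 31.3%. The call goes with the sign of the change. The median log2 change was -1.10 (-1.21 to -0.97) in peaks called in flox alone and 0.57 (0.50 to 0.61) in those called in HKO alone. A peak called in a single genotype was found through high IP there, so its interval gives no separate support for a direction. The counting interval lay wholly below 0 in 338 peaks (33.7%, against 35.8% of all peaks in the table) and wholly above 0 in 228 (22.7%, against 25.3%).

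By distance class the median log2 change was 0.05 (-0.16 to 0.17) upstream, -0.22 (-0.46 to 0.00) downstream and -0.15 (-0.25 to -0.04) for remote peaks. The upstream median was -0.36 among peaks outside M21 genes, and the downstream median was 0.12 with a limit of 5 kb. Called only in HKO were 35.1% (30.3 to 40.3%) of upstream, 25.8% (19.6 to 32.9%) of downstream and 24.7% (20.8 to 28.9%) of remote peaks, and the upstream and remote intervals did not overlap. The share over all peaks of the table, 31.3%, lies inside the upstream and downstream intervals and above the remote one. At least 2-fold lower were 77 of 367 upstream, 44 of 178 downstream and 110 of 458 remote peaks, and 20, 13 and 25 were at least 2-fold higher. The class of a peak near the limit is arbitrary. The 3 peaks nearest to 10 kb inside it, at 9962 to 9993 bases, had log2 changes of -0.94, -2.33 and -1.13, and the 3 nearest outside it, at 10022 to 10042 bases, had 0.53, -0.29 and -1.52.

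By position in the M21 gene the medians spread more widely than by distance. In 3' UTRs the median log2 change was -0.72 (-0.85 to -0.59), with 92 of 265 peaks (34.7%) at least 2-fold lower and 2 (0.755%) at least 2-fold higher, against 40.1% and 3.03% of the 3400 listed with a gene. Coding sequence had a median of 0.26 (0.10 to 0.32), with 49 lower and 18 (5.88%, against 6.30% of those listed with a gene) higher of 306. In 5' UTRs it was 0.39 (0.32 to 0.49), with 5 lower (4.81%) and 10 higher (9.62%) of 104, against 4.96% and 11.5% of the 1412 listed with a gene. The medians of peaks listed with a gene were -0.77 (-0.81 to -0.73) in 3' UTRs and 0.39 (0.37 to 0.43) in 5' UTRs, inside the intervals of the peaks listed with no gene. In coding sequence the peaks listed with a gene had a median of 0.01 (-0.04 to 0.05), an interval that did not overlap that of the peaks listed with no gene. Of the 306 coding peaks listed with no gene 16% (12.1 to 20.6%) were at least 2-fold lower, against 23.7% (22.6 to 24.9%) of the 5602 listed with a gene.

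By the calls of the peak caller, 101 of the 3' UTR peaks (38.1%) were found in flox alone and 34 (12.8%) only in HKO, where the shares were 37.1% and 14.8% for 3' UTR peaks listed with a gene. In 5' UTRs these counts were 4 (3.85%) and 53 (51.0%), against 5.59% and 49.6%, and in coding sequence 44 (14.4%) and 117 (38.2%), against 18.8% and 34.4%. Among 3' UTRs, coding sequence and 5' UTRs the medians kept this order within each distance class, where the 3' UTR medians ran from -0.81 in upstream to -0.64 in remote peaks and the 5' UTR medians from 0.34 in remote to 0.52 in the 6 downstream peaks.

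**Figure D3:**
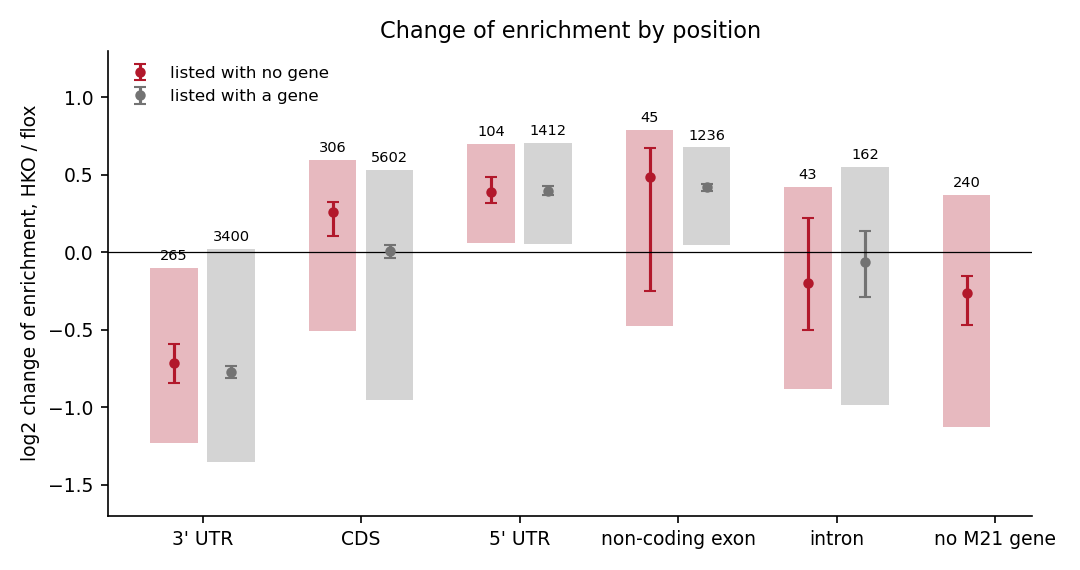
Log2 change of enrichment, HKO over flox (y axis), by position of the peak in M21, for peaks listed with no gene (red) and with a gene (grey). Points are medians with order-statistic 95% intervals, bars run from the lower to the upper quartile, and numbers are peaks. Red medians run from -0.72 in 3' UTRs to 0.39 in 5' UTRs and 0.48 in the 45 non-coding exon peaks.

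For 208 genes the table held both a peak listed with that gene and an exonic peak listed with no gene. These 2 peaks of one gene were set side by side. The peak listed with no gene had more IP reads than the strongest listed peak in 108 of them. Where it lay in the 3' UTR and the listed peak in the 5' UTR, it had the lower log2 change in 19 of 21 genes, with medians of -0.62 and 0.38. In the opposite arrangement, 5' UTR listed with no gene and 3' UTR listed with the gene, it was the lower one in 2 of 21 genes. The medians were 0.37 and -0.96. Other arrangements were less uniform. A 3' UTR peak listed with no gene was lower than a listed coding peak in 22 of 33 genes. A coding peak listed with no gene was lower than a listed 3' UTR peak in 5 of 17. Where both peaks lay in coding sequence, the peak listed with no gene was lower in 14 of 21 genes, with medians of 0.01 and 0.42. These genes are examples of how the value of a gene depends on which of its peaks carries its name. For Aldh8a1, an aldehyde dehydrogenase, the peak named for it at the start of the gene had a log2 change of 0.60 (0.31 to 0.89) with 1554 IP reads in both genotypes, and the 3' UTR peak listed with no gene -1.19 (-1.27 to -1.11) with 20634. For Slc38a2, a sodium-coupled transporter of neutral amino acids, the values were 0.51 (0.13 to 0.90) with 554 reads and -1.22 (-1.37 to -1.08) with 8364. Derl2, a component of the degradation of misfolded proteins at the endoplasmic reticulum, had 0.72 at its listed peak and -1.63 (-1.79 to -1.47) in its 3' UTR. It was chosen after its values were seen.

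A further 341 of the 549 genes with an exonic peak listed with no gene were not named as overlapped by any peak of the table. They held 445 of the peaks, of which 110 (24.7%, 20.8 to 29.0%) were at least 2-fold lower and 27 (6.07%, 4.04 to 8.71%) at least 2-fold higher, near the 24.3% and 6.25% of all peaks. The coding peak of Slc40a1, which encodes ferroportin, the iron exporter of the cell, held 1951 flox IP, 404 flox input, 1911 HKO IP and 1154 HKO input reads, so its IP reads were nearly equal while the input was higher in HKO. Its enrichment was 4.06 in flox and 1.76 in HKO, a log2 change of -1.20 (-1.39 to -1.01), and a second peak in its 3' UTR had -0.76 (-0.94 to -0.57). Slc39a14, which encodes ZIP14, an importer of zinc and iron, had 3282 flox IP, 760 flox input, 858 HKO IP and 742 HKO input reads in its 3' UTR peak. Here the inputs were alike and the IP was lower in HKO, and enrichment went from 3.63 to 1.23, a log2 change of -1.56 (-1.74 to -1.38). Isca1, a factor of mitochondrial iron-sulfur cluster assembly, had 1552 flox IP, 220 flox input, 408 HKO IP and 319 HKO input reads and a log2 change of -2.12 (-2.41 to -1.83).

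Among the strongest remote peaks 4 were lower in HKO with intervals below 0. The 3' UTR peak of Acsl1, the long-chain acyl-CoA synthetase that activates fatty acids, held 21063 flox IP, 7725 flox input, 5190 HKO IP and 5463 HKO input reads. In RPM these were 1184, 516, 301 and 298, so HKO IP and HKO input were nearly equal, enrichment went from 2.30 to 1.01, and the log2 change was -1.18 (-1.25 to -1.11). The Aldh8a1 peak held 13671 flox IP, 3070 flox input, 6963 HKO IP and 4512 HKO input reads, and enrichment went from 3.75 to 1.64. The Slc38a2 peak held 7266 flox IP, 1946 flox input, 1098 HKO IP and 870 HKO input reads, and enrichment went from 3.14 to 1.34. Both IP and input were lower in HKO for Slc38a2, the IP more so. A peak in an intron of Camk2b, a subunit of calmodulin-dependent kinase II, was the strongest remote peak, with 32313 flox IP, 11140 flox input, 15051 HKO IP and 12242 HKO input reads and a log2 change of -0.90 (-0.94 to -0.85). The fifth, in the 3' UTR of Kng1, the kininogen of plasma, had higher enrichment in HKO at 0.35 (0.25 to 0.46), with 4167 flox IP, 2346 flox input, 3819 HKO IP and 2130 HKO input reads. Both fractions were lower in HKO there, with IP at 234 RPM in flox and 222 in HKO and input at 157 and 116.

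The largest falls among remote peaks of at least median strength were in Yap1, Isca1, Rps6kc1 and near Gm28622. The Yap1 peak held 2121 flox IP, 271 flox input, 754 HKO IP and 537 HKO input reads, with enrichment of 6.57 in flox and 1.5 in HKO and a log2 change of -2.13 (-2.38 to -1.89). The 5' UTR peak listed with Yap1 had -0.18 (-0.64 to 0.28), so the fall was seen at the 3' end of the transcript. The 3' UTR peak of Rps6kc1, a kinase-related protein, had -2.19 (-2.78 to -1.60). The peak 43197 bases after the start of Gm28622 had 412 flox IP, 24 flox input, 86 HKO IP and 37 HKO input reads and -2.51 (-3.31 to -1.71). Rises were in Atl2, an atlastin that fuses endoplasmic reticulum tubules, at 1.48 (0.87 to 2.09), in Stra6l, a receptor for retinol-binding protein, at 1.11 (0.62 to 1.59), and in an intron of Upp2, uridine phosphorylase, at 1.14 (0.22 to 2.05). The Upp2 rise rests on few HKO reads, with 409 flox IP, 188 flox input, 48 HKO IP and 12 HKO input.

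The 5 strongest upstream peaks had log2 changes from -0.75, near Gm13655, to 0.47 in Aes. Bhmt, which remethylates homocysteine with betaine, held 7587 flox IP, 5284 flox input, 7210 HKO IP and 6278 HKO input reads in its 3' UTR peak, with enrichment of 1.21 and 1.22. Gstz1, the maleylacetoacetate isomerase of tyrosine breakdown, had a log2 change of -0.23 (-0.30 to -0.15) in its 3' UTR, and the 5' UTR peak of Aes, a co-repressor of the Groucho family, 0.47 (0.37 to 0.58). Bhmt and Gstz1 had many reads in IP and input alike, so their enrichment was low in both genotypes. The largest upstream falls in genes were in coding sequence. Prmt9, a protein arginine methyltransferase, held 449 flox IP, 58 flox input, 140 HKO IP and 117 HKO input reads and had -2.33 (-2.86 to -1.81). Mtpap, the mitochondrial poly(A) polymerase, had -2.19 (-2.64 to -1.74) and Ip6k2, an inositol hexakisphosphate kinase, -1.99 (-2.30 to -1.68). Both peaks lay at the end of the coding sequence, centred 30 bases before its last base in Ip6k2 and 75 in Mtpap. Rises were in Tax1bp1, an autophagy receptor, at 1.14 (0.60 to 1.67), in Ube2e2, a ubiquitin-conjugating enzyme, at 1.03 (0.39 to 1.68) in the 5' UTR, and in an intron of AC169509.1 at 1.1 (0.44 to 1.75).

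Downstream, enrichment at the strongest peaks was higher in HKO in 3 of 5 genes. Cyb5r3, the NADH-cytochrome b5 reductase, had 0.42 (0.31 to 0.53) and Dbi, the acyl-CoA-binding protein, 0.43 (0.33 to 0.53) in the 3' UTR, and Prpf38b, a pre-mRNA processing factor, 0.32 (0.11 to 0.54) in coding sequence. In Cyb5r3 and Dbi both fractions were lower in HKO, the input more so. Cyb5r3 had 309 RPM of IP in flox and 290 in HKO, and 122 and 85.5 of input. Dbi had 232 and 209 RPM of IP, and 198 and 133 of input. In Prpf38b IP was higher in HKO, at 148 RPM in flox and 159 in HKO. Enrichment at the other 2 of these 5 peaks, in Slc39a14 and Slc40a1, was lower. The largest downstream falls were -2.14 (-2.54 to -1.74) in Them4, a thioesterase, -1.98 (-2.27 to -1.69) in Tgif1, a homeobox repressor of TGF-beta signalling, -1.94 (-2.24 to -1.64) in Lrrc8d, a subunit of volume-regulated anion channels, and -1.88 (-2.18 to -1.57) past the M21 end of Acnat1, an acyltransferase of bile acid and fatty acid conjugation. In the RefSeq annotation the last of these peaks overlaps Acnat1 and Rbpj-ps2. In Tgif1 the IP reads were close at 1056 in flox and 942 in HKO, and the input was 142 in flox and 636 in HKO, so its fall in enrichment came with higher input. Them4 differed from it, with IP at 699 and 179 and input at 129 and 186. The member with the lowest log2 change of all, -3.34 (-3.89 to -2.80), was in the 3' UTR of Tmem126b, an assembly factor of mitochondrial complex I, centred 28 bases past the stop codon, with 633 flox IP, 48 flox input, 132 HKO IP and 131 HKO input reads. A stronger peak of Tmem126b, centred 843 bases past the stop codon, stands for the locus under the naming rule and had -0.38 (-0.83 to 0.07). Rises were in coding sequence of Atxn2, an RNA-binding protein, at 0.91 (0.46 to 1.36) and of Litaf, a protein of late endosomes and lysosomes, at 0.85 (0.49 to 1.21), and in the 5' UTR of Bmp1, a procollagen proteinase, at 0.77 (0.41 to 1.12). A stronger Litaf peak in the 3' UTR had -1.13 (-1.35 to -0.92), so the 2 peaks of this gene went opposite ways.

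**Figure D4:**
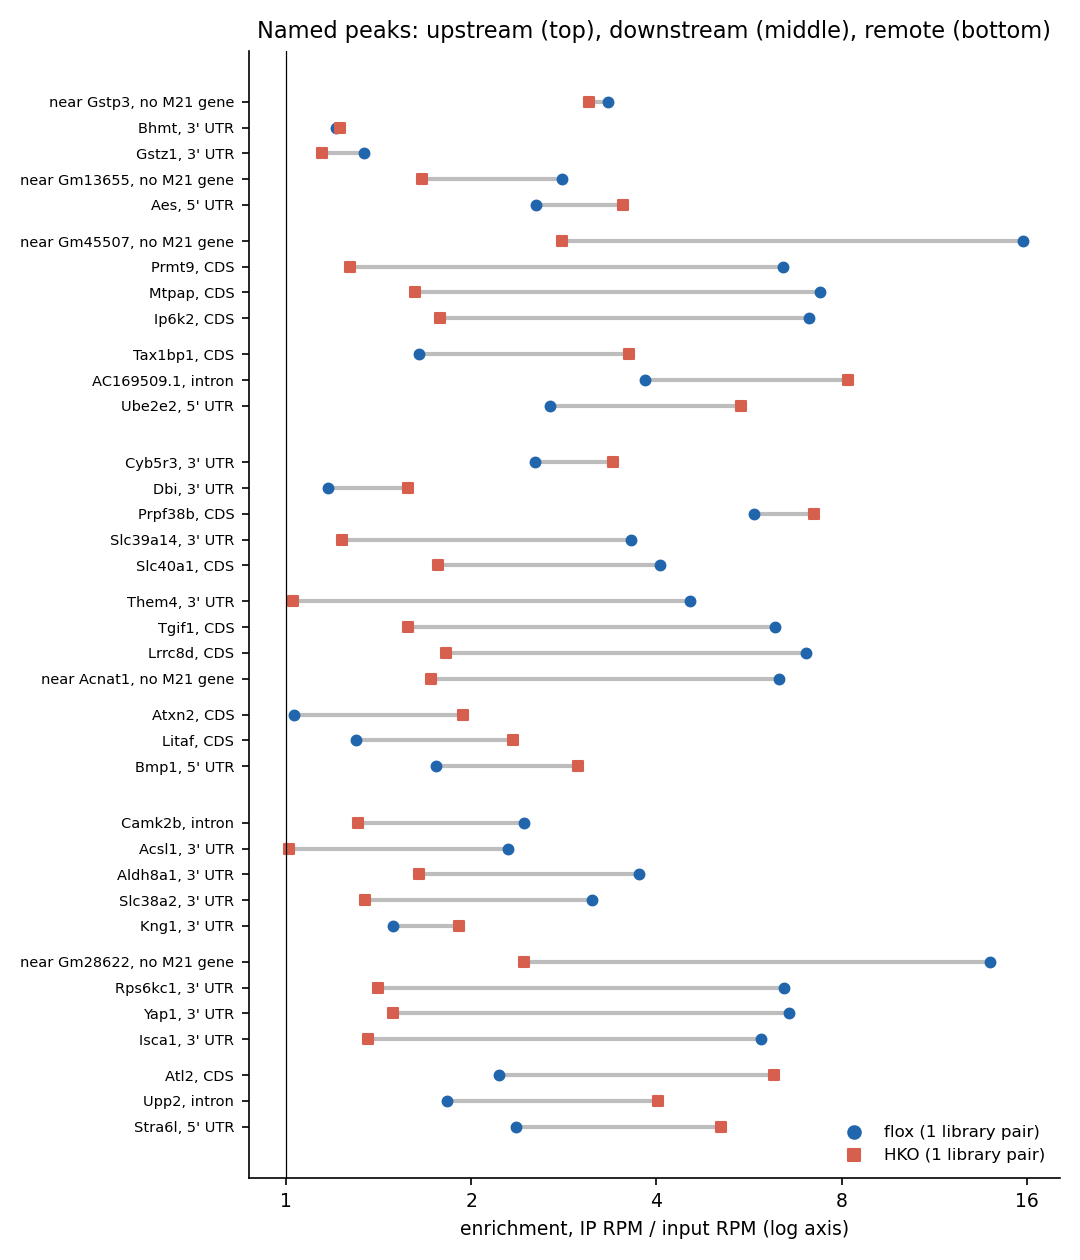
Enrichment, IP RPM over input RPM on a log axis, of the 36 named peaks in flox (blue circles) and HKO (red squares), 1 library pair each, ordered by class and within it by strongest peaks, largest falls and largest rises. The falls went from 5.92 to 15.8 in flox to 1.27 to 2.81 in HKO outside the downstream class, and the Them4 peak ended at 1.03 in HKO. The falls near Gm45507 and Gm28622 and in Prmt9 and Them4 were called in flox alone. The rises in Atxn2 and Litaf were called in HKO alone, and the rise in Upp2 in flox alone.

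The 240 peaks outside every M21 gene are the members for which the label holds in this annotation. RefSeq (GRCm38.p6) places 103 of them in a gene of its own, and 137 overlap no gene in either annotation. They lay at 182 loci when peaks within 5 kb of each other are joined, and 43 loci had 2 or more. Their enrichment was higher than that of the other peaks, with medians of 3.96 in flox and 2.77 in HKO against 2.72 and 2.33 for the 763 peaks in M21 genes. Of the 240, 69 (28.8%, 23.1 to 34.9%) were at least 2-fold lower in HKO and 18 (7.5%, 4.51 to 11.6%) at least 2-fold higher, and both intervals contain the shares of all peaks, 24.3% and 6.25%. The median log2 change was -0.26 (-0.47 to -0.15). The calls were in flox alone for 103 (42.9%, 36.6 to 49.4%), where 22.5% of all peaks were, only in HKO for 52 (21.7%, 16.6 to 27.4%), where 31.3% were, and in both for 85. Their input was lower in HKO, with a median log2 ratio of -0.35 against 0.16 for the peaks in M21 genes. The 103 peaks in RefSeq genes and the 137 in neither had medians of -0.21 (-0.47 to 0.03) and -0.31 (-0.64 to -0.18), with overlapping intervals.

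A single locus held 29.6% of the IP reads of these 240 peaks. It lies 2443 to 4413 bases upstream of the start of Gstp3, a glutathione S-transferase of the pi class, at chr19:4061761-4064412, and neither annotation has a gene there. Its peak farthest from Gstp3 held 32953 flox IP, 8297 flox input, 25494 HKO IP and 8731 HKO input reads, the most IP reads of any member. That peak had a log2 change of -0.10 (-0.15 to -0.05), the middle one -0.76 (-0.87 to -0.64) and the one closest to Gstp3, with 3801 flox IP, 1176 flox input, 1378 HKO IP and 1211 HKO input reads, -1.17 (-1.31 to -1.02). The inputs of all 3 peaks were alike in both genotypes, and the fall was larger in the peaks nearer Gstp3. Genes of the pi class have near-identical copies in this region, so reads of this locus could be shared with them. A second locus with 3 peaks lay upstream of Dhx40, an RNA helicase, at chr11:86812077-86814314. Here the peak nearest Dhx40 held 1707 flox IP, 266 flox input, 891 HKO IP and 470 HKO input reads, and its log2 change of -1.42 (-1.66 to -1.17) exceeded those of the others, -0.29 (-0.42 to -0.15) and -0.60 (-0.73 to -0.48).

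At some other open loci both IP and input differed between the genotypes. The peak upstream of Gm13655, at chr2:75640081-75641866, held 4654 flox IP, 1395 flox input, 8777 HKO IP and 5611 HKO input reads, so both fractions were higher in HKO and the input more so, with a log2 change of -0.75 (-0.85 to -0.65). At chr6:141900328-141902810, past the end of Slco1a1, an organic anion transporter, and inside the RefSeq gene Gm30843, the strongest of 3 peaks went from 2806 to 55 IP reads and from 343 to 23 input reads. Reads were few in both HKO libraries there, and the log2 change of enrichment was -1.47 (-2.17 to -0.76). The peaks at Gm9158 and Gm11843 went the other way, with input log2 ratios of 3.04 and 2.93 and log2 changes of enrichment of -0.79 (-1.06 to -0.52) and, at the stronger Gm11843 peak, -0.32 (-0.61 to -0.03). With 1 input library per genotype these input differences cannot be told apart from differences between pools.

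The 3 peaks of the locus next to Gm45507 all had intervals below 0. They lay 386 to 1236 bases past the end of Bnip3, a mitophagy receptor of the outer mitochondrial membrane, and had log2 changes of -2.49 (-3.67 to -1.30), -2.18 (-3.91 to -0.46) and -1.92 (-3.33 to -0.50). The strongest held 392 flox IP, 20 flox input, 28 HKO IP and 10 HKO input reads, so IP was high in flox alone and both inputs were low. It was called in flox alone, a choice that favours a fall. The strongest exonic peak of Bnip3 itself, in the 5' UTR, had 0.54. In contrast the 3 peaks past the end of Zbtb16, a zinc-finger repressor, which RefSeq includes in the gene, had log2 changes of 0.54 (0.00 to 1.08), 0.56 (-0.03 to 1.15) and 1.11 (0.42 to 1.80), so that a single interval lay clearly above 0. Of the 15 loci with 3 or more such peaks, 5 had all estimates below 0, the locus past Zbtb16 had all above 0 and 9 had both signs. One of these 9, past Gm26753, had 2.08 (0.83 to 3.34), -1.04 (-1.40 to -0.68) and -2.04 (-2.72 to -1.37).

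**Figure D5:**
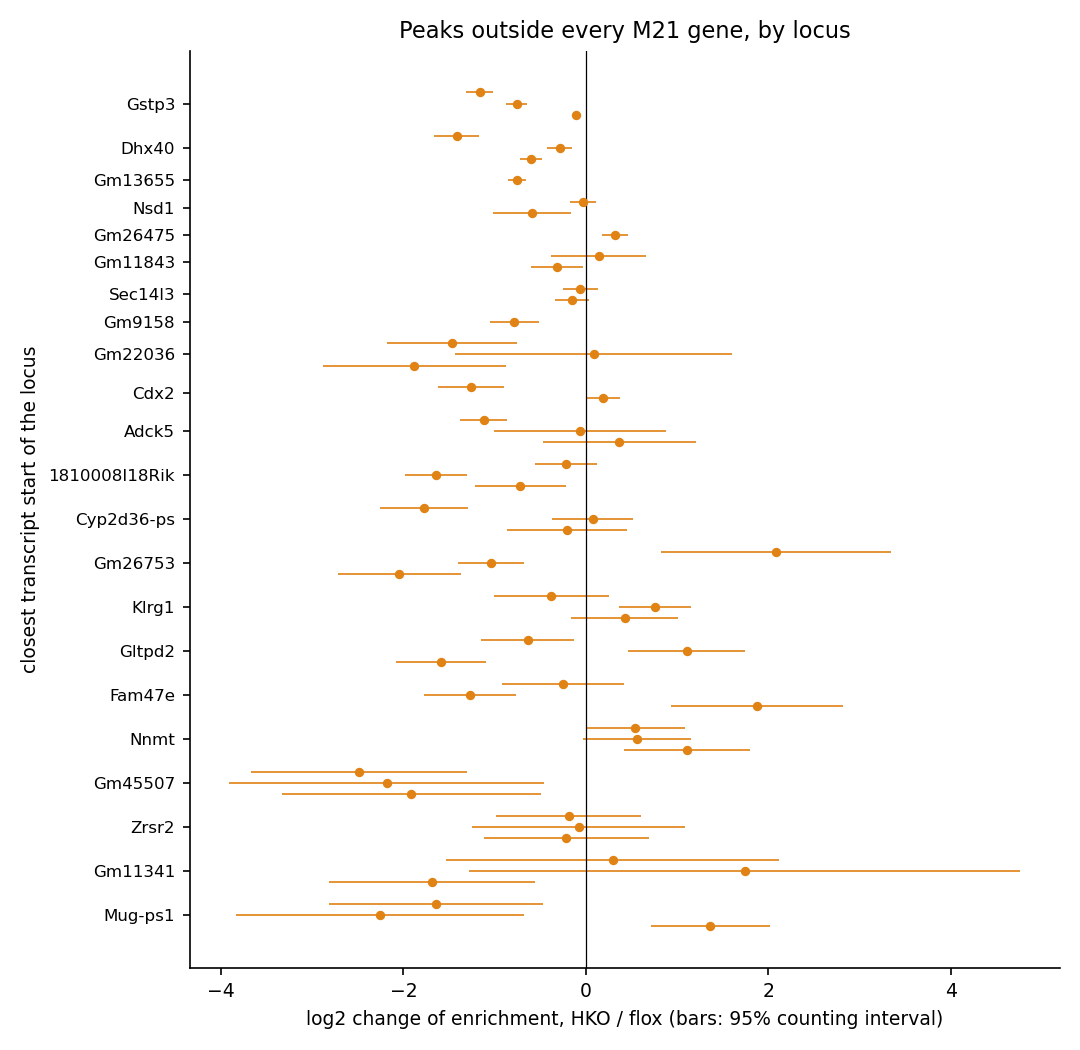
Log2 change of enrichment (x axis, bars show the 95% counting interval) of each peak outside every M21 gene, at the 12 loci with the most IP reads and at all further loci with 3 or more such peaks, ordered by IP reads within each of these 2 sets and labelled by the closest transcript start. All 3 peaks near Gm45507 lie below 0 with their intervals, and the estimates of all 3 near Nnmt, past the end of Zbtb16, lie above 0.

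Of the 240 peaks 106 (44.2%, 37.8 to 50.7%) began within 5 kb past the end of an M21 gene along its strand, 69 of them past a protein-coding gene, and 76 lay within 2 kb. The median log2 change was -0.21 (-0.45 to -0.06) in the 106 and -0.37 (-0.60 to -0.10) in the other 134. For 54 of the 84 genes concerned the table also held an exonic peak, which was set beside the peak past the end. The input changed in the same direction in 41 of the 54 genes, and the log2 input ratios had Pearson's r = 0.71 across them. The change of enrichment had the same direction in 35 and r = 0.35. These pairs share libraries and partly share reads of one transcript, so both are descriptions. Otc, the urea cycle enzyme ornithine transcarbamylase, had input ratios of -0.79 past its end and -1.24 in its own 3' UTR peak, with log2 changes of enrichment of 0.12 and 0.42. Cyp2c67, a cytochrome P450, had input ratios of -2.75 and -1.91. Sec14l4, a lipid-binding protein, differed in enrichment, with -0.06 (-0.25 to 0.13) past its M21 end and -1.54 in its own 3' UTR. RefSeq includes the peak past the M21 end in Sec14l4.

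Peaks listed with no gene were unevenly spread over chromosomes. They made up 12.4% of the 663 peaks on chromosome 3, 11.9% of the 655 on chromosome 6 and 11.6% of the 828 on chromosome 5, and 4.84% (3.65 to 6.29%) of the 1094 on chromosome 11. The interval of the lowest did not reach that of chromosome 3 (9.96 to 15.1%).

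The genes of the gene lists were rarely next to or under these peaks. Among 30 plasma protein genes, Serpina1a and Trf were the closest start of 1 peak each, with log2 changes of 0.77 (0.41 to 1.13) and 0.84 (0.68 to 1.0), and the latter peak lay in coding sequence of 1300017J02Rik. Among 15 hepatocyte transcription factors, Foxa1 and Onecut1 were the closest start of 1 peak each. The Foxa1 peak had 134 flox IP, 19 flox input, 8 HKO IP and 4 HKO input reads and -1.57 (-3.28 to 0.15), and the Onecut1 peak had -0.45 (-1.08 to 0.18). Of 30 genes of lipid metabolism, 1 carried an exonic peak listed with no gene, Mlxipl, which encodes the carbohydrate-responsive factor ChREBP, at -0.32 (-1.80 to 1.17). That peak lay in a non-coding exon, was called in HKO alone and held 26 flox IP, 4 flox input, 112 HKO IP and 32 HKO input reads. With 5 added to each count its log2 change was 0.22, so its sign is not settled. None of 22 immediate-early genes was next to or under a peak listed with no gene. Over all peaks of the table the immediate-early genes had a summed input of 995 RPM in flox and 3516 in HKO.

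Markers of liver cell types were looked up in the same way. Of 8 hepatocyte markers 6 had a peak, with a summed input of 10908 RPM in flox and 9542 in HKO, and Cps1 was the closest start of 1 peak listed with no gene. Of 4 Kupffer cell markers 3 had a peak, with 239.8 RPM in flox and 406 in HKO, and Adgre1 had none. Endothelial markers had 98.3 and 62.1 RPM and stellate cell markers 14.6 and 22.3. The single cholangiocyte marker with a peak, Sox9, had 0.534 and 6.43 RPM, from 8 flox and 118 HKO input reads. No marker of these 4 other cell types was the closest start of, or carried, a peak listed with no gene. The inputs of immediate-early genes and of Kupffer, endothelial, stellate and cholangiocyte markers differed between the genotypes. With 1 input library per genotype this cannot be told apart from a difference between pools. The part of these inputs in the changes above was not tested.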

How the data were processed

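Poly(A)+ RNA of mouse liver was sequenced before and after m6A immunoprecipitation (Magna MeRIP kit, HiSeq X). Per the study's methods the authors mapped reads with BWA to GRCm38 and called peaks of each IP library over its input with exomePeak. The submitters' processing notes instead list MACS2 2.1.0 as a tool, beside HOMER, FastQC and BWA 0.7.12-r1039 on GRCm38, so the caller is not settled. The deposited read counts per merged peak are not normalized. The deposited RPM values are the count plus 1, scaled to the library total, from which the totals were recovered. Columns of the authors' fold enrichment and log2 fold change (3 columns) were not used, and both were computed again from the RPM.

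The 14395 rows were reduced to 12815 distinct peaks, of which 1003 had no overlapping gene in any row. The members, gene lists and rules were chosen with earlier results of these data known. Peaks were placed on the GENCODE M21 transcript with the largest exonic overlap, a principal isoform being preferred when it reached 90% of it, at the middle of the exonic part. No genome sequence was used, so motifs were searched in transcript sequence and only under exonic peaks. Named in each class were the 5 loci with most IP reads and, among loci with 404 IP reads (the median) or more, the 4 largest falls and 3 largest rises, each by its strongest peak. Peaks within 5 kb formed 1 locus (826 in all), and other genes named were chosen after their values were seen. Markers and lists of plasma protein, immediate-early, hepatocyte transcription factor and lipid metabolism genes were looked up.

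A peak was lower or higher at a 2-fold change. Counting intervals (95%) used the reads of the 4 libraries plus 1. Shares have exact (Clopper-Pearson) and medians order-statistic 95% intervals. A count of 0 allows 3 reads, 0.163 to 0.200 RPM in these libraries. The statistics were tested on simulated counts, and the outcome is not reported here. Alternatives were the size of the change, peak strength, the count added, centring, the annotation, and the distance limits. Calculations ran in pandas 2.3.3, scipy 1.17.1 and numpy 2.4.6 under Python 3.11.15, and plots in matplotlib 3.10.9.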

Additional observations from a re-analysis of the deposited data

How the results depend on the processing

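No paired analysis was possible because each genotype and fraction had 1 library and no test was made. The 231 lower and 58 higher peaks became 355 and 201 at a 1.5-fold change, 42 and 1 at 4-fold, and 105 and 5 among peaks with at least the median of 456 IP reads. Only the 240 peaks outside M21 genes left 69 and 18, with a median log2 change of -0.26 in place of -0.11. Restricting to them turned the upstream median from 0.05 to -0.36 and left 83 upstream, 37 downstream and 120 remote peaks. A remote limit of 5 kb turned the downstream median from -0.22 to 0.12, in 90 peaks. A limit of 20 kb gave 317 downstream and 206 remote peaks. The cause of these 2 reversals was not tested. The share of exonic peaks with GGACT went from 47.9% on both strands to 29.4% on the strand of the closest start, 33.8% on the transcript strand (a setting chosen after seeing the data), 83.8% with GGAC and 38.8% in 200 bases. The share of all members past a gene end was 10.6% at 5 kb, 7.58% at 2 kb and 14.4% at 10 kb. Among stronger peaks 18.1% were called in flox alone and 13.6% in HKO alone, in place of 27.5% and 28.7%. The other 26 alternative values stayed within 1.5 times the count or within the interval of the median. With 5 added to each count, all 36 named peaks kept their direction and moved by at most 0.26. Depth limits single peaks, whose median standard error was 0.30 on the log2 scale.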
